A study of Mus musculus with 16 samples.

Results

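Border-associated macrophages are the resident macrophages of the perivascular spaces, the meninges and the choroid plexus. The 7 genes Mrc1, Cd163, Lyve1, Pf4, Stab1, F13a1 and Cbr2, which are commonly used to tell these cells from microglia, were followed in mouse striatum after a focal injury. They were taken as the rows of the read count table that carry these symbols, and all 7 were found among its 19457 genes. In the healthy brain these cells line vessels and membranes, where they take up proteins, lipids and debris from blood and fluid, whereas microglia lie within the tissue. After injury, monocytes that enter from blood can switch on several of the same genes, so none of the 7 is a strict lineage marker. Mrc1 (the mannose receptor CD206), Stab1 (stabilin-1) and Cd163 (the receptor for haemoglobin bound to haptoglobin) are scavenger receptors, and Lyve1 is a hyaluronan receptor also made by lymphatic endothelium. F13a1 encodes the A subunit of coagulation factor XIII, which cross-links fibrin outside the cell but which macrophages keep largely inside. Pf4 (the chemokine CXCL4, also abundant in platelets) acts outside the cell, and Cbr2 is a carbonyl reductase.

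Striatal RNA was sequenced in wild-type mice (WT) and in GS mice, whose label was taken to mean LRRK2 G2019S, the kinase variant linked to Parkinson's disease that the series title names. Brains were intact, or were collected 6 h, 3 d or 15 d after a striatal injection of ATP (0.8 µl at 500 mM, on one side, under tribromoethanol), which acts as a danger signal when it leaks from injured cells. The 8 groups were WT intact, GS intact, WT 6 h, GS 6 h, WT 3 d, GS 3 d, WT 15 d and GS 15 d, with 2 libraries in each and 16 in all, labelled as biological replicates. The controls were intact and no vehicle-injected group was analysed here, so the effects of ATP and of the needle cannot be told apart. The labels used here give no age, sex, strain or kind of LRRK2 allele, and do not say whether animals were pooled or which side was sampled. Libraries held 49220578 to 63948110 counts. The values are bulk measurements, in which fewer cells of a type and less RNA per cell cannot be told apart. All 8 striatal projection neuron markers were present in every library (4901 to 8114 summed CPM, CPM being counts scaled to library size after TMM normalisation). Cortical neuron markers summed to 38.6 to 210 CPM, highest in WT intact replicate 1 (209.9 CPM), and choroid plexus markers to 50.5 to 414 CPM, highest in GS intact replicate 1 (414.1 CPM). These lists were chosen to mark tissue other than striatum. How much of their sums came from such tissue was not tested, nor was their part in the members' values.

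The members were scarce transcripts. Levels were compared between genes as RPKM, that is CPM divided by the length of the exons in kb. In the 4 intact libraries Stab1 stood highest, at 0.994 ± 0.0744 RPKM (SD, n = 4). Mrc1 followed at 0.501 ± 0.0616, Cbr2 at 0.336 ± 0.112, F13a1 at 0.297 ± 0.0385, Pf4 at 0.255 ± 0.0882, Lyve1 at 0.180 ± 0.0110 and Cd163 at 0.174 ± 0.0515 RPKM. Neighbours in that order from Cbr2 downwards differed by less than the larger of their 2 SDs. All 7 passed the low-count filter, but Pf4 had only 5 to 23 counts per library, with 10 or more in 10 of 16 libraries, and Cbr2 had 14 to 53. The label of the group could be checked only in part, because 13 of 22 other genes used to mark these macrophages, Ms4a7, Folr2, Clec10a, Mgl2 and the Cd209 genes among them, are outside the table. The table lists only genes with at least 1 count in every library. The 9 that it holds, such as Siglec1, Dab2, Maf, Tgfbi and Hpgd, summed to 43.1 to 49.6 CPM in intact striatum.

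In WT striatum at 3 d, 4 of the 7 genes were higher than in intact striatum, and 14.7% of the 18813 genes tested were higher at an edgeR adjusted p under 0.05 in that comparison. In GS striatum at 3 d the count was also 4 of 7, against 18.6% of all genes tested. In both genotypes the 4 were Stab1, F13a1, Lyve1 and Mrc1, and no member was lower. The median log2 fold change over the 7 was 1.02 in WT and 0.72 in GS, beside -0.01 over all genes tested in each genotype.

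**Figure D1:**
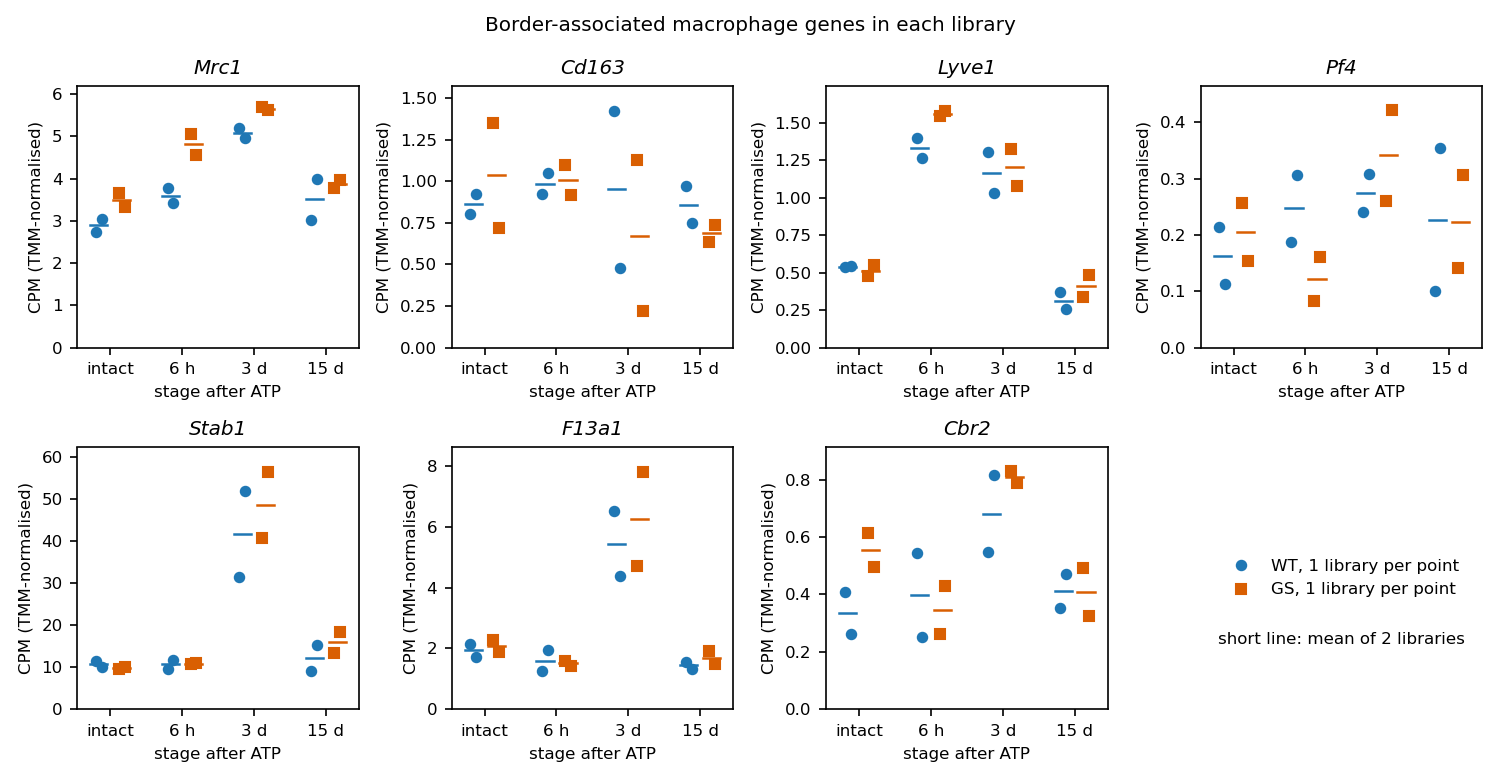
Level of each gene in CPM (TMM-normalised, linear axes from 0) in every library, by stage; circles are WT, squares GS, 1 library each, and the short line is the mean of the 2 libraries. Stab1 and F13a1 stand highest at 3 d, Lyve1 is high at 6 h and 3 d, and the 2 libraries of Cd163 at 3 d lie far apart in both genotypes.

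Stab1, a large scavenger receptor that carries acetylated lipoproteins and extracellular debris into the cell, changed most. In WT its libraries stood at 11.3 and 10.0 CPM intact, 9.60 and 11.7 at 6 h, 31.5 and 51.9 at 3 d, and 9.11 and 15.3 at 15 d. In GS they stood at 9.61 and 9.92 CPM intact, 10.8 and 10.9 at 6 h, 40.8 and 56.5 at 3 d, and 13.5 and 18.3 at 15 d. Every 3 d library was above every library of the other stages, and the intact and 6 h libraries overlapped in WT. The log2 fold change at 3 d was 1.96 ± 0.25 (SE) in WT, 3.90-fold (edgeR adjusted p = 0.000122), and 2.31 ± 0.26 in GS, 4.98-fold (edgeR adjusted p = 2.07e-05). At 6 h it was -0.01 ± 0.26 in WT and 0.15 ± 0.26 in GS, and neither passed. On the length scale Stab1 went from 0.994 RPKM intact to 4.39 ± 1.09 RPKM (SD, n = 4) at 3 d. Some of its exons lie within the span of Nt5dc2 on the opposite strand, and strand use in counting is not known here, so reads of the 2 genes may be mixed. Nt5dc2 itself ran from 4.01 to 12.1 CPM and rose at 3 d by 1.28 ± 0.26 in WT (edgeR adjusted p = 0.00262) and 0.84 ± 0.26 in GS (edgeR adjusted p = 0.0201), both on the log2 scale, and its share in the Stab1 counts was not tested.

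Mrc1, the mannose receptor, which binds glycoproteins that end in mannose and is also raised in macrophages exposed to interleukin-4, rose less. In WT its libraries stood at 2.74 and 3.04 CPM intact, 3.78 and 3.41 at 6 h, 5.21 and 4.96 at 3 d, and 3.03 and 3.99 at 15 d. In GS they stood at 3.66 and 3.34 CPM intact, 5.07 and 4.56 at 6 h, 5.70 and 5.62 at 3 d, and 3.78 and 3.96 at 15 d. The 3 d libraries were above the intact and 15 d libraries of both genotypes, and the 6 h libraries lay between intact and 3 d within each genotype. The log2 fold change at 3 d was 0.81 ± 0.16 in WT (edgeR adjusted p = 0.00255) and 0.69 ± 0.16 in GS (edgeR adjusted p = 0.00436). At 6 h it was 0.32 ± 0.17 in WT and 0.46 ± 0.16 in GS, with edgeR adjusted p of 0.308 and 0.0763. With both genotypes averaged, a contrast added after these values were seen, Mrc1 was higher at 6 h by 0.39 ± 0.12 (edgeR adjusted p = 0.0288), but the call was lost without WT intact replicate 1, either GS intact library, either WT 6 h library or GS 6 h replicate 1 (adjusted p from 0.0517 to 0.104).

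F13a1, which encodes the transglutaminase subunit that stabilises fibrin clots and that macrophages keep largely inside the cell, followed the course of Stab1. In WT its libraries stood at 2.15 and 1.71 CPM intact, 1.24 and 1.95 at 6 h, 6.51 and 4.39 at 3 d, and 1.56 and 1.32 at 15 d. In GS they stood at 2.27 and 1.86 CPM intact, 1.57 and 1.44 at 6 h, 4.72 and 7.80 at 3 d, and 1.90 and 1.496 at 15 d. All 4 libraries at 3 d were above every other library. The log2 fold change at 3 d was 1.49 ± 0.29 in WT, 2.81-fold (edgeR adjusted p = 0.00186), and 1.59 ± 0.29 in GS, 3.02-fold (edgeR adjusted p = 0.000699). The 6 h estimates were below 0, at -0.28 ± 0.30 in WT and -0.46 ± 0.30 in GS, and did not pass. The locus also holds the antisense RNAs Gm49144 and Gm30489, whose spans touch F13a1 exons and which are not in the table, so F13a1 counts are uncertain to that extent.

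Lyve1, which binds hyaluronan on perivascular macrophages and on lymphatic vessels, differed in timing and was higher at 6 h. In WT its libraries stood at 0.534 and 0.545 CPM intact, 1.40 and 1.26 at 6 h, 1.30 and 1.03 at 3 d, and 0.368 and 0.256 at 15 d. In GS they stood at 0.479 and 0.547 CPM intact, 1.54 and 1.58 at 6 h, 1.32 and 1.08 at 3 d, and 0.334 and 0.486 at 15 d. All libraries at 6 h and 3 d were above all libraries of the other stages. The log2 fold change at 6 h was 1.30 ± 0.28 in WT, 2.46-fold (edgeR adjusted p = 0.0204), and 1.60 ± 0.27 in GS, 3.03-fold (edgeR adjusted p = 0.00224). Lyve1 was the 1 member of 7 called at 6 h in each genotype, where 2.54% of all genes tested were higher in WT and 7.47% in GS. At 3 d it was still higher, by 1.11 ± 0.28 in WT (edgeR adjusted p = 0.00894) and 1.23 ± 0.28 in GS (edgeR adjusted p = 0.00345). The WT call at 6 h was lost without any 1 of the WT intact and WT 6 h libraries (adjusted p from 0.0921 to 0.132), with the estimate between 1.23 and 1.37. The 3 d call in WT did not hold with WT intact replicate 1 left out (adjusted p = 0.0668) or with WT 3 d replicate 1 left out (0.0602), nor in a fit of the compared groups alone (0.0516), while both GS calls were kept whichever library was left out.

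Lyve1 also marks lymphatic endothelium, so 7 further genes of that cell type were read beside it. Of these, 4 are in the table, Prox1, Flt4, Pdpn and Reln. At 6 h 0 of 4 were called in either genotype by edgeR, DESeq2 or limma-voom. In each genotype 0 of 4 had an unadjusted p under 0.05, with medians of -0.06 in WT and -0.07 in GS. With the genotypes averaged, a contrast added later, 0 of 4 were called and 1 had an unadjusted p under 0.05. The 4 summed to 220 to 246 CPM at 6 h, far above Lyve1. Prox1 and Flt4 were a small part of that sum, which was led by Pdpn and Reln. These 2 moved apart in WT at 15 d (1.07 ± 0.15 and -0.68 ± 0.09 on the log2 scale). The sum is therefore not a measure of lymphatic RNA alone, and the part of lymphatic endothelium in the Lyve1 value was not tested. Prox1, the transcription factor that sets lymphatic identity, is also made by neurons and astrocytes. It ran from 16.4 to 17.7 CPM intact and from 18.5 to 20.3 CPM at 6 h. Flt4, the receptor for VEGF-C, ran from 2.62 to 3.75 CPM intact and from 2.69 to 4.23 CPM at 6 h. Ccl21a, Mmrn1 and Stab2 are outside the table. Haemoglobin genes moved at the same time, with 4 of 4 measured erythrocyte genes higher at 6 h in both genotypes and sums of 3.34 to 5.82 CPM intact against 27.7 to 58.9 CPM at 6 h, and the part of blood in the Lyve1 value was not tested.

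**Figure D2:**
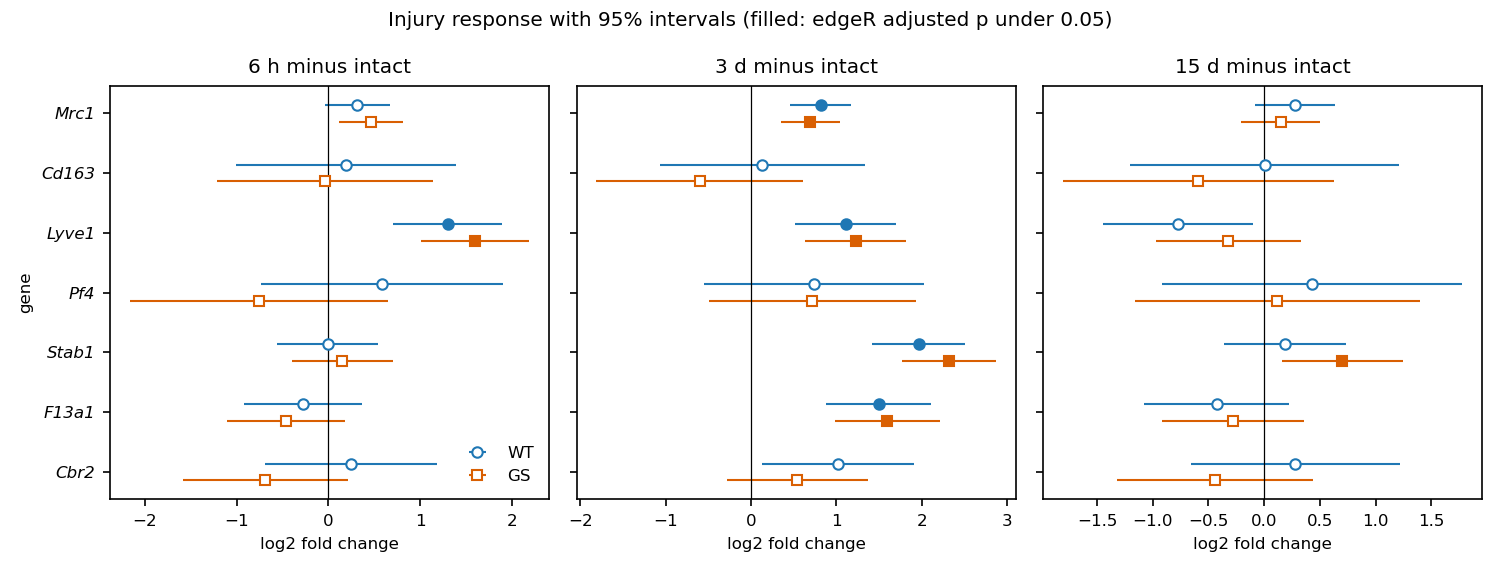
Log2 fold change of each gene against intact striatum of the same genotype at 6 h, 3 d and 15 d, with 95% intervals; circles are WT, squares GS, and filled symbols passed an edgeR adjusted p under 0.05. Lyve1 is filled at 6 h, Stab1, F13a1, Lyve1 and Mrc1 at 3 d in both genotypes, and Stab1 in GS alone at 15 d; the panels have different horizontal scales.

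Cd163, which clears haemoglobin released by lysed red cells, did not pass in any comparison at 3 d, and its replicates lay far apart there. In WT its libraries stood at 0.801 and 0.920 CPM intact, 0.921 and 1.05 at 6 h, 1.42 and 0.477 at 3 d, and 0.971 and 0.748 at 15 d. In GS they stood at 1.35 and 0.718 CPM intact, 1.10 and 0.915 at 6 h, 1.13 and 0.220 at 3 d, and 0.634 and 0.739 at 15 d. In each genotype 1 library at 3 d was the lowest of that genotype's 8, and the other was the highest in WT and the second highest in GS. The log2 fold change at 3 d was 0.13 ± 0.56 in WT (95% interval -1.07 to 1.33) and -0.60 ± 0.57 in GS (-1.81 to 0.61), with edgeR adjusted p of 0.889 and 0.440. The intervals include changes in either direction. In WT at 3 d the 2 libraries held 83 counts (exact Poisson 95% interval 66.1 to 103) and 31 counts (21.1 to 44.0), a ratio of 2.98 in CPM. In GS they held 69 counts (53.7 to 87.3) and 12 counts (6.20 to 21.0), a ratio of 5.12. The intervals of the pairs do not meet, so the gap at 3 d was larger than counting error. Without GS 3 d replicate 1 the GS estimate was -2.22 and passed (edgeR adjusted p = 0.0192), so the GS result rests on that library. The same held for the step from 6 h to 3 d in GS (-2.19, edgeR adjusted p = 0.0201) and for the average over genotypes at 3 d (-1.05, edgeR adjusted p = 0.0450), neither of which passed with all libraries.

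**Figure D3:**
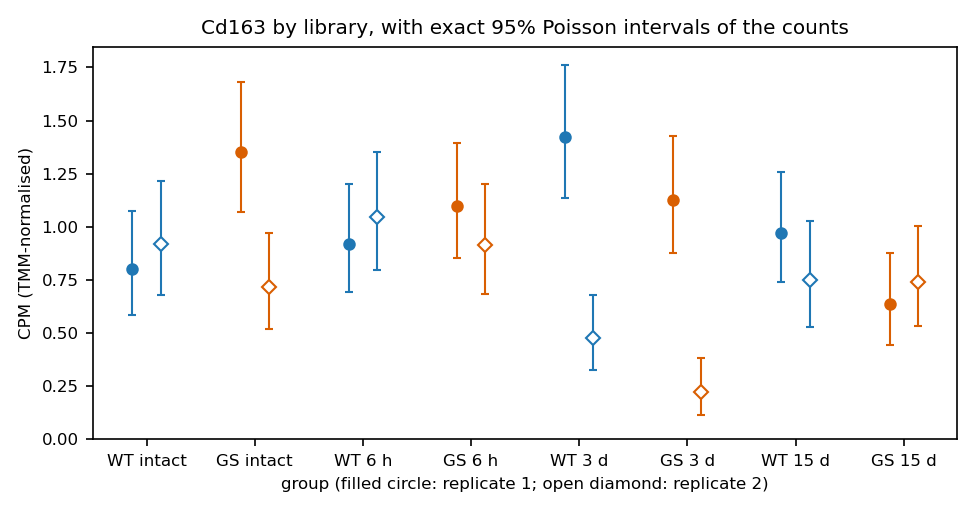
Cd163 in CPM (linear axis from 0) in each of the 16 libraries, by group, with exact 95% Poisson intervals of the counts; filled circles are replicate 1 and open diamonds replicate 2. The intervals of the 2 libraries do not meet in WT 3 d, GS 3 d and GS intact.

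The 3 d libraries that were low in Cd163 were the higher ones in Stab1 and in the summed microglia and monocyte genes, and the other members were mixed. WT 3 d replicate 2 and GS 3 d replicate 2, the low ones, held more Stab1 (51.9 and 56.5 CPM) than the replicate 1 libraries (31.5 and 40.8 CPM). WT 3 d replicate 2 was below replicate 1 in Mrc1 (4.96 and 5.21 CPM), F13a1 (4.39 and 6.51 CPM) and Lyve1 (1.03 and 1.30 CPM). GS 3 d replicate 2 was below replicate 1 in Mrc1 (5.62 and 5.70 CPM), Lyve1 (1.08 and 1.32 CPM) and Cbr2 (0.787 and 0.832 CPM). Replicate 2 was above replicate 1 in Pf4 in WT (0.308 and 0.240 CPM) and GS (0.421 and 0.261 CPM). The same was seen in WT for Cbr2 (0.816 and 0.548 CPM) and in GS for F13a1 (7.80 and 4.72 CPM). Apart from Stab1, the Poisson intervals of these pairs do not meet for F13a1 in either genotype and meet for the others. Homeostatic microglia genes summed to 637 and 1020 CPM in WT 3 d replicates 1 and 2, and to 1014 and 1268 CPM in GS. Infiltrating monocyte genes summed to 156 and 237 CPM in WT and to 264 and 397 CPM in GS, in the same order. Choroid plexus genes ran the other way, at 111 and 50.5 CPM in WT and 192 and 98.2 CPM in GS. In 4 of the other 6 groups the library with more choroid plexus RNA had less Cd163, and in those 4 the Cd163 intervals meet. WT intact and GS intact ran as at 3 d. In GS intact, where the Cd163 intervals also do not meet, replicates 1 and 2 held 414 and 88.2 CPM of choroid plexus genes. Their Cd163 stood at 1.35 and 0.718 CPM. Choroid plexus also holds border macrophages, and the part of that tissue in the Cd163 values was not tested.

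Pf4, a platelet chemokine that perivascular macrophages also make, ran from 0.0820 to 0.421 CPM over the 16 libraries. Its log2 fold change at 3 d was 0.74 ± 0.60 in WT (95% interval -0.55 to 2.02) and 0.72 ± 0.57 in GS (-0.49 to 1.93), with edgeR adjusted p of 0.394 and 0.350. Both intervals include 0 and a log2 change of 1.02. Of 10 platelet genes only Itga2b and Gp1bb are in the table, and Ppbp, Gp9 and Gp6 are not. Gp1bb fell in WT at 3 d by 0.82 ± 0.23 (edgeR adjusted p = 0.0172).

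Cbr2, the carbonyl reductase, ran from 0.253 to 0.832 CPM. Its libraries at 3 d stood at 0.548 and 0.816 CPM in WT and 0.832 and 0.787 CPM in GS, against 0.410 and 0.263 CPM in WT intact and 0.615 and 0.496 CPM in GS intact. The 3 d libraries were above the intact libraries within each genotype. The log2 fold change at 3 d was 1.02 ± 0.41 in WT (edgeR adjusted p = 0.0827) and 0.54 ± 0.39 in GS (edgeR adjusted p = 0.300), and neither passed. Averaged over the genotypes, again a contrast added after the values were seen, Cbr2 was higher at 3 d by 0.78 ± 0.28 (edgeR adjusted p = 0.0355), which made 5 of 7 members called against 23.4% of all genes tested. That call was lost without WT intact replicate 2, either GS intact library, WT 3 d replicate 2 or either GS 3 d library (adjusted p from 0.0519 to 0.135) and with DESeq2 (0.0766).

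The promoters of Stab1, F13a1 and Mrc1, which rose at 3 d, are printed beside that of Cd163. Cd163, Pf4 and Cbr2 did not pass at 3 d in either genotype. RefSeq promoter windows of GRCm38.p6 (mm10) were matched for 6 of 7 members, all but Lyve1, which also rose at 3 d. The 250 bases before the start given in that RefSeq table are printed, 5′ to 3′ on the gene's strand. For Cd163 and Stab1 that start lies inside the gene's annotated span, so the window's last bases are in the gene. They lie at chr14:31168642-31168891 on the minus strand for Stab1, chr13:37050245-37050494 on the minus strand for F13a1, chr2:14229164-14229413 on the plus strand for Mrc1 and chr6:124304401-124304650 on the plus strand for Cd163. Capitals mark the letters GAGGAA, or TTCCTC, the same letters read on the other strand. GAGGAA is 1 form of the site bound by PU.1, the transcription factor that macrophages require. Shorter and other forms of that site were not searched.
Stab1: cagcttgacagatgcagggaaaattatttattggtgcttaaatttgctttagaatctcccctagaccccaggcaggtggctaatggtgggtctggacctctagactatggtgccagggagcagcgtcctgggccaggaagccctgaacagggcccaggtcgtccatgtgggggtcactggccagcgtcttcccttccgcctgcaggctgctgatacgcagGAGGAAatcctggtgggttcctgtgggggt
F13a1: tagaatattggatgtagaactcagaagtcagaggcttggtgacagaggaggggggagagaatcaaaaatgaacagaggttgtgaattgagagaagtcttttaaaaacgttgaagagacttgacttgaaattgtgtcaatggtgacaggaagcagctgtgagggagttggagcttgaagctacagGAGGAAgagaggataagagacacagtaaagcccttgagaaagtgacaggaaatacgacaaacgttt
Mrc1: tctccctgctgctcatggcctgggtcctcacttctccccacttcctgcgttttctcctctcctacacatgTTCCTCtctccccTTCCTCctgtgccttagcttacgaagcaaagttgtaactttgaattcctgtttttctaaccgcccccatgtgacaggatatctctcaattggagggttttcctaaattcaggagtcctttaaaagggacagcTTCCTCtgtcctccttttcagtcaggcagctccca
Cd163: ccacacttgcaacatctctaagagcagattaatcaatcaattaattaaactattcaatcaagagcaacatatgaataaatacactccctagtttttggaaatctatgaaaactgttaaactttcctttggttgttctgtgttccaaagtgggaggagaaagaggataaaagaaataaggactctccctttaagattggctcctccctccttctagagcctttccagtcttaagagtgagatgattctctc
The run GAGGAA was found 1 time in Stab1, 1 time in F13a1, 3 times in Mrc1 and 0 times in Cd163. It was also found in Pf4 and Cbr2, which like Cd163 did not pass at 3 d. Of the 6 members with a window, 5 held it in at least 1 window. Counted by window it was in 5 of 7 member windows and in 23.3% of 32851 windows of the same length. A second F13a1 window, at chr13:37049214-37049463, held none. The MAF element TGCTGA was found in 1 of 7 member windows and in 16.1% of all windows. The letters of AP-1 (TGANTCA), of STAT6 (TTC and GAA with 4 free bases between), of the glucocorticoid receptor (ACANNNTGT) and of the interferon response element (GAAA 2 times with 2 free bases between) were in 0 of 7 member windows and in 6.75%, 5.85%, 5.84% and 2.98% of all windows. Motifs were searched on both strands, and a match is a run of letters and was not tested as a binding site.

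In genome terms (GRCm38.p6, RefSeq gene positions counted from 1, with the table's NCBI Gene ID), Mrc1 (17533) spans chr2:14229414-14332023, Cd163 (93671) chr6:124304636-124330529 and Pf4 (56744) chr5:90772435-90773383 on the plus strand. Lyve1 (114332) spans chr7:110850607-110862953, Stab1 (192187) chr14:31139017-31168651, F13a1 (74145) chr13:36867178-37050244 and Cbr2 (12409) chr11:120729485-120732025 on the minus strand. No 2 members share a chromosome. The microRNA gene Mir511 lies within Mrc1 without touching its exons.

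Between 6 h and 3 d, 3 of 7 members were higher in WT, against 15.9% of all genes tested, and 3 of 7 in GS, against 19.9%. Stab1 rose by 1.97 ± 0.25 in WT (edgeR adjusted p = 8.18e-05) and 2.16 ± 0.25 in GS (edgeR adjusted p = 2.16e-05). F13a1 rose by 1.77 ± 0.29 in WT (edgeR adjusted p = 0.000495) and 2.05 ± 0.30 in GS (edgeR adjusted p = 0.000102). Lyve1 had estimates of -0.19 ± 0.26 in WT and -0.37 ± 0.25 in GS that did not pass. The third member called was Mrc1 in WT, at 0.50 ± 0.16 (edgeR adjusted p = 0.0315), and Cbr2 in GS, at 1.23 ± 0.41 (edgeR adjusted p = 0.0273). The Mrc1 call was lost without any 1 of the 4 WT 6 h and WT 3 d libraries (adjusted p from 0.0713 to 0.172). The Cbr2 call was lost without GS 6 h replicate 1 (0.194), GS 3 d replicate 1 (0.0780) or GS 3 d replicate 2 (0.0698), and with DESeq2 (0.0546). Pf4 in GS, at 1.48 ± 0.62, did not pass (edgeR adjusted p = 0.0713) but did without WT 15 d replicate 1 (0.0440) or 2 (0.0441). These steps share their 3 d libraries with the injury comparisons and are not independent of them.

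From 3 d to 15 d, 3 of 7 members fell in each genotype, while 1.57% of all genes tested were lower in WT and 1.02% in GS. The 3 were Stab1, F13a1 and Lyve1 in both genotypes. In WT, F13a1 fell by 1.92 ± 0.30 on the log2 scale (edgeR adjusted p = 0.00485), Lyve1 by 1.88 ± 0.29 (0.00541) and Stab1 by 1.78 ± 0.25 (0.00266). In GS, F13a1 fell by 1.88 ± 0.29 (edgeR adjusted p = 0.00789), Stab1 by 1.61 ± 0.25 (0.00772) and Lyve1 by 1.55 ± 0.29 (0.0167). Mrc1 had estimates of -0.54 ± 0.16 in WT and -0.55 ± 0.16 in GS, with edgeR adjusted p of 0.0872 and 0.0905, and DESeq2 called it in GS (0.0498). Without WT 15 d replicate 2 the WT calls of F13a1 (adjusted p = 0.0541) and Lyve1 (0.0667) were lost, and in a fit of WT 3 d and WT 15 d alone, where 5 genes in all were called, all 3 were (0.0897 to 0.137). In GS 0 of the 3 were called without GS 3 d replicate 2 or without GS 15 d replicate 2 and 1 of 3 without GS 15 d replicate 1, with adjusted p from 0.0665 to 0.131 for the lost calls.

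At 15 d against intact striatum, 0 of 7 members were higher in WT and 1 of 7 in GS, while 14.2% and 19.4% of all genes tested were. In WT edgeR called none in either direction, with 1 member at an unadjusted p under 0.05, and DESeq2 and limma-voom also called 0. That member was Lyve1, at -0.77 ± 0.31 (edgeR adjusted p = 0.0857), with both libraries (0.368 and 0.256 CPM) below both intact libraries (0.534 and 0.545 CPM). The gene called in GS was Stab1, at 0.70 ± 0.25, 1.63-fold (edgeR adjusted p = 0.0425). That call was lost without GS 15 d replicate 2 (0.46, adjusted p = 0.289) or without any 1 of the 8 intact and 6 h libraries (adjusted p from 0.0503 to 0.148, estimates from 0.68 to 0.72). It was also lost with DESeq2 (0.0596), limma-voom (0.0997) and all genes kept regardless of count (0.0548). With the genotypes averaged, the contrast added later, 0 of 7 were higher at 15 d by edgeR, DESeq2 or limma-voom, against 23.6% of all genes tested, and 2 members had an unadjusted p under 0.05, Lyve1 at -0.55 ± 0.22 and Stab1 at 0.44 ± 0.18 (edgeR adjusted p of 0.0521 and 0.0553). In that average Lyve1 passed without WT 15 d replicate 1 or GS 15 d replicate 2, and Stab1 without either WT 3 d library, WT 15 d replicate 1 or GS 15 d replicate 1 (adjusted p from 0.0101 to 0.0408). F13a1 had estimates of -0.42 ± 0.30 in WT and -0.28 ± 0.30 in GS and did not pass.

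Other cell types were read beside the members. Of all genes tested, 14.7% were higher at 3 d and 14.2% at 15 d in WT, and 18.6% and 19.4% in GS. Homeostatic microglia genes, 11 of 11 in the table, rose in 9 of 11 in WT at 3 d (median 0.92) and 9 of 11 at 15 d (median 0.82), and in GS in 10 of 11 at both times. At 6 h their sums were lower, at 0.662 to 0.736 of the intact mean of the same genotype. From 3 d to 15 d edgeR called 0 of 11 in either genotype, with 1 in WT and 4 in GS at an unadjusted p under 0.05, while DESeq2 called 1 in WT and 0 in GS and limma-voom 0. Fcrls, a microglial Fc receptor-like gene, had a log2 fold change in WT of 2.69 ± 0.36 at 3 d and 3.04 ± 0.36 at 15 d, with edgeR adjusted p of 0.000149 and 7.08e-05. Infiltrating monocyte genes, of which 6 of 11 are in the table and Ccr2, Plac8 and Chil3 are not, rose in 6 of 6 in WT at 3 d (median 1.88) and 5 of 6 at 15 d (median 2.20). Lyz2, the lysozyme of myeloid cells, had a log2 fold change in WT of 4.45 ± 0.49 at 3 d and 6.37 ± 0.50 at 15 d, with edgeR adjusted p of 4.14e-05 and 5.42e-06. The 7 members were measured in tissue where microglial and monocyte genes also moved, and the part of those cells in the members' values was not tested.

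The 9 further border macrophage genes in the table were mostly still higher at 15 d. In WT 6 of 9 were higher at 3 d (median 0.94) and 6 of 9 at 15 d (median 0.71), with 1 of 9, Clec12a, lower at 15 d. In GS 8 of 9 were higher at 3 d and 7 of 9 at 15 d. The shares of all genes tested that were higher at 3 d and 15 d were 14.7% and 14.2% in WT and 18.6% and 19.4% in GS. From 3 d to 15 d, 1 of 9 rose and 1 fell in WT, and 1 rose and 2 fell in GS. Hpgd rose in both (1.37 ± 0.29 and 1.35 ± 0.29 on the log2 scale), Dab2 was lower at 15 d in both (-1.16 ± 0.26 and -1.24 ± 0.25) and Tgfbi in GS (-1.12 ± 0.22). Siglec1, the sialoadhesin receptor, ran from 0.232 to 0.445 CPM intact, 4.88 to 20.9 CPM at 3 d and 4.27 to 12.8 CPM at 15 d. In WT its log2 fold change was 5.10 ± 0.64 at 3 d and 4.74 ± 0.64 at 15 d, with edgeR adjusted p of 9.34e-05 and 0.000172. Dab2, an endocytic adaptor, had 1.80 ± 0.26 and Tgfbi 1.44 ± 0.23 at 3 d in WT. Hpgd, which degrades prostaglandins, had 2.32 ± 0.31 and Maf, a macrophage transcription factor, 0.88 ± 0.14 at 15 d in WT.

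**Figure D4:**
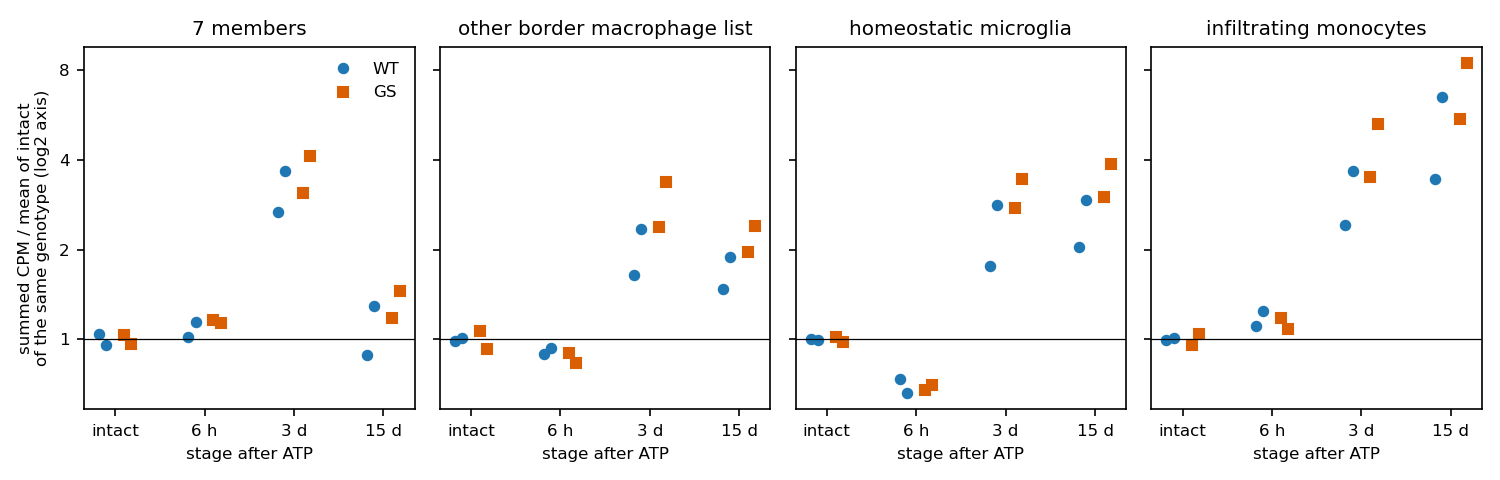
Summed CPM of 4 gene lists in each library divided by the mean of the 2 intact libraries of the same genotype (log2 axis), by stage; circles are WT and squares GS. The 7 members lie at 2.68 to 4.10 at 3 d and at 0.889 to 1.45 at 15 d, while microglia genes lie at 2.05 to 3.87 and monocyte genes at 3.44 to 8.42 at 15 d.

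On summed CPM the members went from 16.6 to 18.2 intact and 17.7 to 20.4 at 6 h to 46.7 to 72.4 at 3 d and 15.5 to 25.6 at 15 d. Stab1 made up most of that sum, and without it the other 6 summed to 6.59 to 8.63, 8.08 to 9.62, 11.98 to 15.9 and 6.38 to 7.32 CPM. Against the intact mean of the same genotype, the member sum stood at 2.68 to 4.10 at 3 d and 0.889 to 1.45 at 15 d. The 9 further border macrophage genes stood at 1.47 to 2.40 at 15 d, microglia genes at 2.05 to 3.87 and monocyte genes at 3.44 to 8.42. These ranges at 15 d do not overlap between the members and those 3 lists. They do overlap for blood vessel endothelium (0.981 to 1.31), fibroblasts (1.24 to 1.52), interleukin-4 and interleukin-10 signalling (1.39 to 1.58), fibrin formation and lysis (1.40 to 1.72) and other lists. No test of the difference between lists was made and the sums are led by their most abundant genes.

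Pathways in which the members work were read from lists that hold none of them, beside 14.7% of all genes tested that were higher in WT at 3 d. For Cd163, haemoglobin and haem clearance: 3 of 7 measured genes rose in WT at 3 d, led by Hmox1, the enzyme that breaks down haem, at 3.39 ± 0.51 (edgeR adjusted p = 0.000324), with the ferritins Ftl1 (1.31 ± 0.18) and Fth1 (0.42 ± 0.12). For Lyve1, hyaluronan receptors and turnover: 3 of 10 rose and 1 fell in WT at 3 d, with Cd44, the main hyaluronan receptor, at 2.26 ± 0.21 (edgeR adjusted p = 1.68e-05) the hyaluronidase Hyal1 at 0.56 ± 0.13 and the synthase Has1 at -0.66 ± 0.17. Hmmr, at 4.30 ± 0.45, also serves the mitotic spindle. For F13a1, fibrin formation and lysis: 5 of 6 rose in WT at 3 d, among them the urokinase gene Plau (3.30 ± 0.49) and the transglutaminase Tgm2 (1.71 ± 0.17), together with F3 and Thbd. Fga, Fgb and Fgg, the fibrinogen chains, are outside the table. For Mrc1, 0 of its 3 relatives Mrc2, Pla2r1 and Ly75 passed in WT at 3 d by edgeR, DESeq2 or limma-voom, and 0 had an unadjusted p under 0.05, and Mrc2 passed at 15 d at 1.16 ± 0.30 (edgeR adjusted p = 0.0122). In GS at 3 d 1 of the 3 passed by all 3 tools, Mrc2 at 0.95 ± 0.30 (edgeR adjusted p = 0.0259).

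Genes of pathways that maintain or polarise macrophages were also read, many of them receptors. Of 8 measured genes of macrophage growth factor signalling, 6 rose and 1, the ligand Il34, fell in each genotype at 3 d. Of all genes tested, 14.7% were higher in WT and 18.6% in GS at that time. Csf2rb, the common receptor chain for GM-CSF, had a log2 fold change of 2.93 ± 0.26 in WT (edgeR adjusted p = 1.45e-05), Tgfb1 1.76 ± 0.30 and Tgfbr2 1.38 ± 0.21. Of 7 measured genes of interleukin-4 and interleukin-10 signalling, which can raise Mrc1 and Cd163 in cultured macrophages, 6 rose in WT and 7 in GS at 3 d. Il4ra had 2.08 ± 0.29 and Il10rb 1.59 ± 0.23 in WT, while Arg1 is outside the table. The interleukin list holds no interleukin gene, so it does not measure the signals themselves. The part of these pathways in the members' values was not tested, nor was the part of microglia and monocytes in the receptor values.

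Vessel and connective tissue genes give the setting. Blood endothelium genes were lower at 6 h, 1 of 10 in WT (Slco1a4) and 8 of 10 in GS, where 1.55% and 6.37% of all genes tested were lower. Their sums at 6 h were alike, at 119 and 109 CPM in WT and 119 and 102 CPM in GS. The intact sums were 155 and 129 CPM in WT and 176 and 175 CPM in GS. For a different response at 6 h, edgeR, DESeq2 and limma-voom called 0 of 10, with 3 at an unadjusted edgeR p under 0.05. Between intact genotypes edgeR called 0 of 10, with 6 at an unadjusted p under 0.05. At 3 d 4 of 10 were higher in WT (Vwf, Pecam1, Cdh5 and Flt1), with Vwf, the von Willebrand factor gene, at 1.61 ± 0.18 (edgeR adjusted p = 4.94e-05). Fibroblast genes of meninges and vessel walls rose in 6 of 10 in WT and 7 of 10 in GS at 3 d, with the collagen gene Col3a1 at 1.91 ± 0.38 in WT (edgeR adjusted p = 0.00222). At that time 14.7% of all genes tested were higher in WT and 18.6% in GS. Perivascular spaces hold both fibroblasts and border macrophages, and the part of sampled vessel or membrane in the members' values was not tested.

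Between the genotypes, 0 of 7 members passed at any stage by edgeR, DESeq2 or limma-voom. Of all genes tested, edgeR called 0.0159% in the intact state, 0.00532% for 6 h, 0.0106% for 3 d and 0.00532% for 15 d. At an unadjusted p under 0.05 the member counts were 0, 1, 0 and 0, and the 1 was Mrc1 at 6 h. Its GS libraries (5.07 and 4.56 CPM) were above its WT libraries (3.78 and 3.41 CPM), a log2 difference of 0.42 ± 0.16 (edgeR adjusted p = 0.652). The GS libraries of Mrc1 were also above the WT libraries in intact striatum and at 3 d, and overlapped them at 15 d. Other members were apart too. GS was higher in Cbr2 intact and Lyve1 at 6 h, and lower in Stab1 intact, Pf4 at 6 h and Cd163 at 15 d. With 2 libraries a group such gaps are common, and their share over all genes was not computed. Averaged over the 4 stages, a contrast added after the values were seen, Mrc1 was 0.25 ± 0.08 higher in GS (edgeR adjusted p = 0.399, unadjusted 0.00871), and 0 of 7 members passed where 0.0106% of all genes did. For the 4 members called at 3 d against intact striatum, the genotype difference at 3 d had these 95% intervals. They were -0.19 to 0.50 for Mrc1, -0.29 to 0.73 for Stab1, -0.38 to 0.78 for F13a1 and -0.51 to 0.60 for Lyve1.

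**Figure D5:**
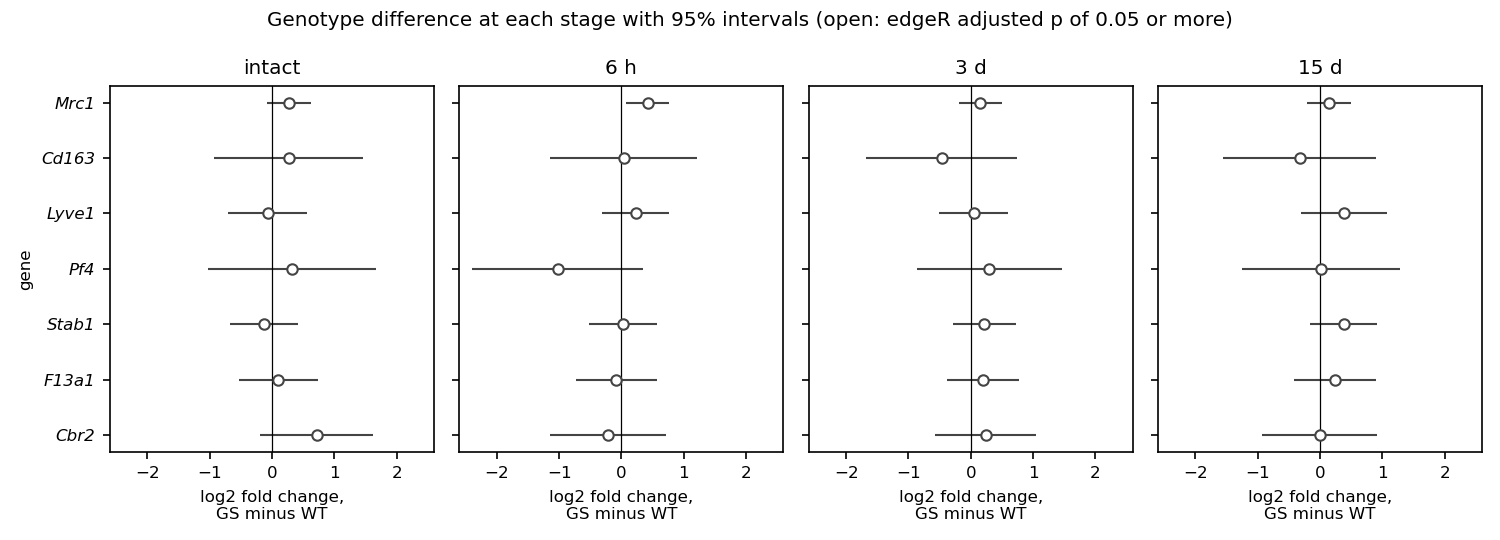
Log2 difference between GS and WT for each gene at each stage, 1 panel a stage, with 95% intervals; open symbols have an edgeR adjusted p of 0.05 or more, and all are open. The Mrc1 interval at 6 h (0.07 to 0.77) lies above 0 before adjustment, and the widest intervals belong to Pf4 and Cd163.

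The injury response itself did not pass a test of difference between genotypes in any member at 6 h, 3 d or 15 d, 21 interactions in all, and 0 of 7 members had an unadjusted p under 0.05 at any time. DESeq2 and limma-voom also called 0 of 7, and edgeR called 0.0106%, 0% and 0% of all genes tested. For Stab1 the GS response exceeded the WT response by 0.35 ± 0.35 at 3 d (95% interval -0.40 to 1.10) and by 0.51 ± 0.36 at 15 d (-0.26 to 1.28). For Lyve1 at 6 h the difference was 0.30 ± 0.39 (-0.53 to 1.13). Intervals of this width leave room for differences of more than 2-fold in Stab1, so the data do not show that the genotypes respond alike.

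Across the 16 libraries the members fell into more than 1 pattern, as a description with no test, since libraries share injury stages. Stab1 and F13a1 were most alike (Pearson r of log2 CPM 0.868), and Mrc1 with Stab1 gave 0.759. Lyve1 gave 0.316 with Stab1 and 0.595 with Mrc1. Cd163 gave -0.510 with Stab1 and -0.397 to 0.0931 with the others. Among 15347 other genes with a mean of at least 1 CPM, those most like Stab1 were Adam8 (0.973), Igfbp3 (0.965) and Cep55 (0.960), and those most like F13a1 were Zdhhc2 (0.936), Stt3b (0.921) and Ipo7 (0.920). Mrc1 was most like Thbs1 (0.906), Tgm2 (0.883) and Rnf125 (0.880), and Lyve1 like Angptl4 (0.914), Wee1 (0.911) and Acap2 (0.911). The closest genes to Cbr2 were Gm10420 (0.883), Sox18 (0.821) and Mrpl13 (0.798), to Cd163 Myh7 (0.857), Adamts17 (0.808) and Tmem91 (0.803), and to Pf4 Med8 (0.774), Actn4 (0.757) and Pomt1 (0.740).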

How the data were processed

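The authors deposited 1 table of unnormalised counts, per the file headers, with 19457 genes and 16 libraries. The labels' protocols name RNeasy for total RNA and TruSeq RNA for libraries. FastQC 0.11.7 and mm10 are named in the submitters' processing notes, with aligner, counter and strand setting not given in the sources used here. Columns name GS or NT, and NT was taken as WT by elimination. Whether replicates came from separate animals is stated only as "biological", so p-values measure the spread between these samples.

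Counts were filtered with filterByExpr by group (18813 genes kept, 644 removed) and TMM-normalised (factors 0.947 to 1.03). They were tested in R 4.3.3 with edgeR 4.0.16 (glmQLFit and glmQLFTest, 1 coefficient per group, all 16 libraries, 8 residual degrees of freedom, common biological coefficient of variation 10.1%), with Benjamini-Hochberg adjustment over all genes tested and a threshold of 0.05. Standard errors were computed as |log2 fold change| over the root of F, and 95% intervals from these, so both are approximate. Replicate libraries varied by more than counting error, with chi-square over its degrees of freedom at 10.0 to 33.7. Alternatives were RLE size factors, no filter or a mean of at least 1 CPM, DESeq2 1.42.0, limma-voom (limma 3.58.1), the compared groups alone, the replicate number as a block and each library left out. Poisson intervals cover counting error only. RPKM used exon unions of GENCODE M21.

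The members, gene lists and tests were chosen with earlier results of these data known. Genes named were all 7 members, the 3 genes most like each member, and from each other list up to 3 genes that passed and had the largest absolute log2 change in WT at 3 d and at 15 d; list genes named for their level, as outside the table or to complete a count of 5 or fewer, and Nt5dc2, lie outside that rule and were chosen after their values were seen. Some genes that the rule names are not reported here.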

Additional observations from a re-analysis of the deposited data

How the results depend on the processing

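Of 3296 member values recomputed under alternatives, 3226 kept their side of the threshold, 55 lost their call and 15 gained one. Direction was compared only for values called in the main fit or in the alternative, and 0 of those reversed. Values called in neither were not checked for direction. With a mean of at least 1 CPM the count of members called at 6 h went from 1 to 0 in WT and in GS, because Lyve1 was not tested. In a fit of the compared groups alone the count for WT 15 d against 3 d went from 3 to 0 (all genes from 602 to 5). For GS 15 d it went from 1 to 0 with limma-voom, with DESeq2 and without the low-count filter. Leaving out each library gave ranges of 0 to 1 (WT 6 h), 0 to 1 (GS 15 d), 1 to 3 (WT 15 d against 3 d) and 0 to 3 (GS 15 d against 3 d). Counts over all genes moved by more than 1.5 times for WT 6 h (769 by edgeR, 1437 by DESeq2, 1482 with the compared groups alone), WT 3 d (5153 and 3216 with those groups alone), WT 15 d against 3 d (602 and 1202 by DESeq2) and GS 15 d against 3 d (395 and 1057 by DESeq2). By DESeq2 the genotype counts (3, 1, 2 and 1 at the 4 stages) became 153, 57, 17 and 4, and the interaction counts (2, 0 and 0) became 122, 62 and 20. With the compared groups alone the genotype counts became 1, 62, 0 and 4. Some of these small counts also moved by more than 1.5 times under other settings. Leaving out each library gave all-gene counts, on which the background shares rest, of 63 to 1073, 2414 to 5497 and 2264 to 5161 in WT at 6 h, 3 d and 15 d and 866 to 2959, 3928 to 6758 and 4546 to 7277 in GS. The ranges for 3 d against 6 h were 3281 to 6023 (WT) and 4918 to 7513 (GS), and for 15 d against 3 d 124 to 987 (WT) and 12 to 1061 (GS). Replicate numbers were not taken to pair the samples, since only 3 of 28 pairs of groups, those among WT 3 d, WT 15 d and GS 15 d, had r above 0.1 (r from -0.0991 to 0.174). Replicate 2 was the higher library in summed members, microglia and monocyte genes in all 4 groups at 3 d and 15 d. The replicate block left the planned member counts at 1, 4 and 0 in WT and 1, 4 and 1 in GS at 6 h, 3 d and 15 d, and in the added 15 d average Stab1 passed with it (0.41, edgeR adjusted p = 0.0200). Depth limits Pf4, the spread between libraries limits Cd163, and 2 libraries a group limit all genotype differences.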
